A study of Mus musculus with 5 samples.

Results

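The miR-200 family (mmu-miR-200a, mmu-miR-200b, mmu-miR-200c, mmu-miR-141 and mmu-miR-429) and the miR-183 cluster (mmu-miR-183, mmu-miR-96 and mmu-miR-182) were examined in mouse hippocampus, and are named below without the prefix for mouse. These 8 of the 569 miRNA probes on the array were taken by name, as the non-control probes for the main strand of each hairpin. The study compared mice with a knocked-in human gene for brain-derived neurotrophic factor (hBDNF). Met/Met mice, homozygous for methionine at the Val66Met site, were set against Val/Val mice, homozygous for valine, and all were of the 129/Sv strain and aged 8 weeks. Both genotypes carry the knock-in, and no mouse with an unaltered BDNF gene is among the samples analysed here. Small RNA of 1 Met/Met mouse, labelled with Cy3, and of 1 Val/Val mouse, labelled with Cy5, was placed on each of 5 arrays described as biological replicates 1 to 5. Each genotype kept its dye on every array, and the effects of dye and genotype therefore cannot be told apart. The tables call their 2 columns Test and Cntrl, and nothing read here says which genotype each holds. Every log2 ratio is therefore Test over Cntrl, and its direction between Met/Met and Val/Val is not settled.

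MicroRNAs are short RNAs that pair with messenger RNAs, mainly through the seed near their 5′ end, and lower the output of those messages. The miR-200 family is abundant in epithelial cells, where it represses the transcription factors ZEB1 and ZEB2 and so helps to maintain the epithelial state. The miR-183 cluster is abundant in sensory cells such as photoreceptors and the hair cells of the inner ear, and seed mutations of miR-96 cause progressive hearing loss in humans and mice. Neither group is a typical marker of hippocampal neurons.

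The mature sequences are shown because they tell which members share a seed, and which probe targets are close in sequence. Each is the RefSeq sequence for GRCm38.p6, and each was identical to the target that the array files give for the probe. Capitals mark the seed, bases 2 to 8 from the 5′ end.
miR-200a: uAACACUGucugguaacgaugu
miR-141: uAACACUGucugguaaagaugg
miR-200b: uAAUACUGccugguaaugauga
miR-200c: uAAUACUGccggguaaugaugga
miR-429: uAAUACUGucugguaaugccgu
miR-183: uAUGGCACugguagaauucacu
miR-96: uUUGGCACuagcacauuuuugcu
miR-182: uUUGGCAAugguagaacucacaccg
MiR-200a and miR-141 shared a seed, and miR-200b, miR-200c and miR-429 shared another. The 3 members of the miR-183 cluster had 3 different seeds. Whole sequences of miR-200a and miR-141 were 2 edits apart (substituted, inserted or deleted bases), as were those of miR-200b and miR-200c, so these probes could share signal. MiR-183 was 11 to 13 edits from every member of the miR-200 family. No other miRNA target on the array lay within 3 edits of a member or had a member's seed.

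The 8 hairpins lie in 3 clusters, all on the minus strand of GRCm38.p6. The array files name no genome build, so these positions come from matching the targets to RefSeq. The hairpins of miR-200b, miR-200a and miR-429 span chr4:156053905-156055750, overlap the long non-coding RNA gene Gm13648 and have Ttll10 and 9430015G10Rik as the nearest coding genes. Those of miR-200c and miR-141 span chr6:124717914-124718390, between the coding genes Phb2 and Ptpn6. Those of miR-183, miR-96 and miR-182 span chr6:30165918-30169737, overlap the long non-coding RNA gene Mirc35hg and lie between Nrf1 and Ube2h.

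Each miRNA had 6 spots on an array, and values are mean spot intensities in the linear units of the deposited tables. A miRNA was taken as above unspecific binding where it exceeded the 95th percentile of 136 control spots whose names mark them as mismatch controls. For replicates 1 to 5 that limit was 167, 209, 107, 89.6 and 77.8 units in Test, and 379, 414, 399, 409 and 464 units in Cntrl. Empty spots had medians of 31.4 to 45.7 units in Test and 208 to 361 in Cntrl. Intensities are therefore set against the limit of their own column and array, and no column's raw level is set against the other's. Ratios of replicate 3 ran against those of replicate 5 over the tested miRNAs (Pearson's r = −0.56, across miRNAs, which are not independent) and against those of replicate 1 (r = −0.30). The other pairs of arrays had r of 0.17 to 0.63.

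Most values of the 8 members lay under the mismatch limit, from 0.41 times the limit (miR-96 in Test of replicate 2) upward. Only miR-182 exceeded it on 3 or more arrays in 1 or both columns, that is 1 of 8 members, against 318 of the 569 miRNAs (55.9%). MiR-182 stayed close to it, from 0.73 to 1.17 times the limit in Test and from 0.996 to 1.06 times in Cntrl. As a check on the tissue, all 9 listed miRNAs of hippocampal neurons, miR-124 and miR-9 among them, passed the same rule, with summed intensities of 196255 to 261226 units in Test and 207444 to 248510 in Cntrl.

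In the cluster of miR-200b, miR-200a and miR-429, miR-200b reached the highest value relative to the limit. It had 341, 186, 68.2, 81.5 and 56.7 units in Test of replicates 1 to 5, and 484, 383, 379, 393 and 591 units in Cntrl. MiR-429, which shares the miR-200b seed, had 219, 161, 73.6, 78.9 and 46.5 units in Test, and 438, 373, 347, 383 and 555 in Cntrl. Both exceeded the limit in both columns of replicate 1 and in Cntrl of replicate 5, and in no other column. In Test of replicate 1, miR-200b was 2.05 times the limit. MiR-200a, which carries the other seed of the family, had 139, 142, 76.6, 69.3 and 45.2 units in Test, and 379, 365, 352, 378 and 517 in Cntrl. It exceeded the limit in Cntrl of replicate 5 only, and in Cntrl of replicate 1 it lay just under it.

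MiR-200c and miR-141, which come from neighbouring hairpins, differed in where they exceeded the limit. MiR-200c had 110, 127, 69.0, 56.7 and 50.7 units in Test, and 317, 324, 348, 363 and 549 in Cntrl. It was under the limit in 9 of 10 columns and 1.18 times the limit in Cntrl of replicate 5. MiR-141 lay under the limit in all 10 columns, with 62.6 to 122 units in Test and 348 to 432 in Cntrl.

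In the miR-183 cluster, miR-183 and miR-182 each exceeded the limit somewhere and miR-96 did not. MiR-183 had 148, 182, 85.7, 72.5 and 62.1 units in Test, and 355, 363, 372, 384 and 618 in Cntrl. Its Cntrl value of replicate 5 was 1.33 times the limit, and its 4 other Cntrl values were 0.88 to 0.94 times their limits. MiR-182 had 172, 182, 119, 105 and 56.7 units in Test, and 392, 412, 421, 409 and 493 in Cntrl. It was above the limit in Test of replicates 1, 3 and 4, and in Cntrl of replicates 1, 3, 4 and 5, that of replicate 4 by less than 0.1 unit. MiR-96, the member tied to hearing loss, had 36.5 to 84.9 units in Test and 301 to 386 in Cntrl, under the limit in all 10 columns.

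**Figure D1:**
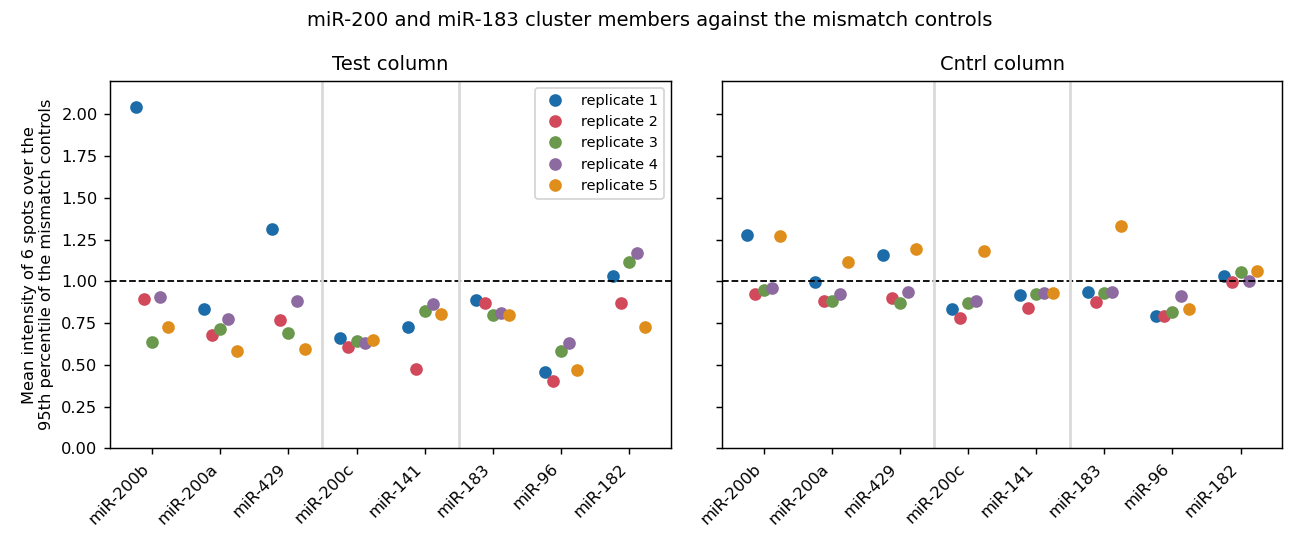
Mean intensity of the 6 spots of each member divided by the 95th percentile of the mismatch controls of the same column and array (vertical axis, linear), for the Test column (left) and the Cntrl column (right). Points are replicates, the dashed line at 1 is the limit, and grey lines part the 3 clusters. In Cntrl of replicate 5, 6 of the 8 members lie above the line, and miR-200b in Test of replicate 1 is highest, at 2.05.

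The number of members above the limit differed between single columns. In Cntrl of replicate 5 it was 6 of 8 (miR-200a, miR-200b, miR-200c, miR-429, miR-183 and miR-182), where 48.7% of all miRNAs were above it. In Test of the same array it was 0 of 8, with 46.0% of all miRNAs above. In replicate 1 it was 3 of 8 in Test and 3 of 8 in Cntrl (miR-200b, miR-429 and miR-182 in each), with 51.1% of all miRNAs above in Test and 56.2% in Cntrl. In replicate 2 it was 0 of 8 in both, with 47.8% of all miRNAs above in Test and 55.9% in Cntrl. In replicates 3 and 4 only miR-182 was above, in both columns, where 55.9% to 57.6% of all miRNAs were. These are single RNA samples of tissue, in which fewer cells of a type and less RNA per cell cannot be told apart.

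No member was called different between Test and Cntrl in the mean over the 5 arrays. Log2 ratios were formed after normexp background correction and loess, and fitted in limma with Benjamini-Hochberg adjustment over the 568 miRNAs brighter than empty spots. At an adjusted p of 0.05 it called 0 of 8 members and 0 of 568 miRNAs (0%). At an unadjusted p of 0.05 it called 0 of 8 members, against 110 of 568 miRNAs (19.4%). A ratio of the same sign on all 5 arrays was found for 0 of 8 members, against 112 of 568 miRNAs (19.7%). The median ratio was −0.03 over the members and 0.00 over all tested miRNAs, with 2 members above 0 and 6 below it. The smallest two-sided p that an exact sign-flip test can give for a single miRNA on 5 arrays is 0.0625.

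The 95% intervals of the mean, which are not adjusted for the number of miRNAs, were wide for most members. MiR-200b had a mean log2 ratio of −0.04 ± 0.58 (SD, n = 5), with a 95% interval of −0.58 to 0.51 (adjusted p = 0.957, limma). MiR-183 was at −0.02 ± 0.55, with an interval of −0.55 to 0.50 (adjusted p = 0.968, limma). MiR-182, the only member above the limit by the rule, was at 0.05 ± 0.23, with an interval of −0.17 to 0.27 (adjusted p = 0.789, limma). Its mean was 0.14 without replicate 5 (adjusted p = 0.194, limma) and 0.00434 without replicate 2, so single arrays set its size. The narrowest intervals were those of the 2 members under the limit in all 10 columns. MiR-141 was at 0.06 ± 0.08 (−0.03 to 0.15, adjusted p = 0.360 in limma) and miR-96 at −0.06 ± 0.07 (−0.15 to 0.02, adjusted p = 0.349 in limma). The signal of these probes could not be set apart from unspecific binding, so the intervals describe the probes. The means of miR-200a, miR-200c and miR-429 were −0.09 ± 0.35, −0.02 ± 0.48 and −0.05 ± 0.48.

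**Figure D2:**
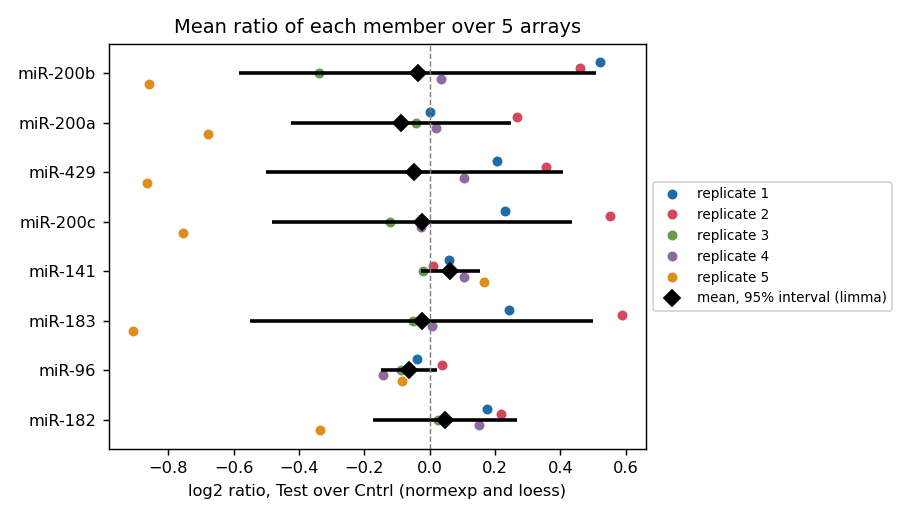
Log2 ratio of Test over Cntrl (horizontal axis) for each member, with coloured points for replicates 1 to 5 and a diamond for the mean with its 95% interval from limma. All 8 intervals include 0, and for miR-200b, miR-200a, miR-429, miR-200c and miR-183 the point of replicate 5 lies far left of the others.

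The means hid ratios that differed widely between arrays. These ratios are of probe signals that mostly lay under the mismatch limit. All 8 members were under it in both columns of replicate 2 and in Test of replicate 5. Sizes of ratios on those arrays cannot be read as measured differences of the miRNAs themselves. Both columns were above the limit only for miR-200b, miR-429 and miR-182 in replicate 1, and for miR-182 in replicates 3 and 4. In replicates 1 to 5, miR-183 had log2 ratios of 0.24, 0.59, −0.05, 0.01 and −0.91. MiR-200c had 0.23, 0.55, −0.12, −0.03 and −0.75, and so stayed near miR-183 on every array. MiR-429 had 0.21, 0.36, −0.04, 0.11 and −0.86. All 3 were above 0 in replicates 1 and 2, near 0 in replicates 3 and 4, and far below 0 in replicate 5. MiR-200a followed with 0.00, 0.27, −0.04, 0.02 and −0.68. MiR-200b had 0.52, 0.46, −0.34, 0.03 and −0.86, the one of these clearly below 0 in replicate 3 as well. In replicate 5 these 5 members were below the 5th percentile of all tested miRNAs (−0.56), and in replicate 2 miR-200b, miR-200c and miR-183 were above the 95th (0.37).

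MiR-182 had 0.18, 0.22, 0.02, 0.15 and −0.34, also above 0 in replicates 1 and 2 and lowest in replicate 5, over a smaller range and within the 5th to 95th percentile of all tested miRNAs on that array. The last 2 members differed from these 6. MiR-141 stayed between −0.02 and 0.17 and was highest in replicate 5, where its neighbour miR-200c was low. MiR-96 stayed between −0.14 and 0.04, although it lies between miR-183 and miR-182 in the genome. By array, the median over the 8 members was 0.19, 0.31, −0.05, 0.03 and −0.72 in replicates 1 to 5, with 7, 8, 1, 6 and 1 members above 0.

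**Figure D3:**
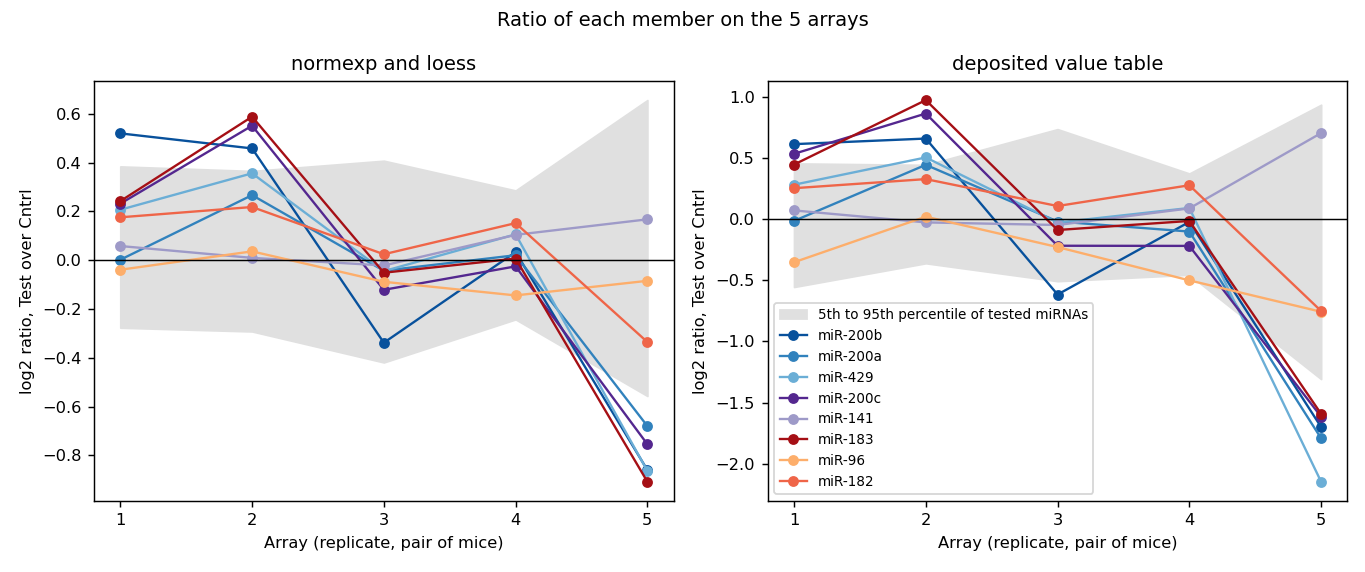
Log2 ratio of Test over Cntrl (vertical axes, of different range) of the 8 members on the 5 arrays (horizontal axis), after normexp and loess (left) and in the deposited value table (right). Lines join points of 1 member only to guide the eye, since replicates have no order, and the grey band runs from the 5th to the 95th percentile of the tested miRNAs. In replicate 5, miR-200a, miR-200b, miR-200c, miR-429 and miR-183 lie under the band in both panels, while miR-141 lies above 0.

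Leaving out replicate 5 turned the mean ratio of each of these 5 members positive, to 0.17 for miR-200b, 0.16 for miR-200c, 0.16 for miR-429, 0.06 for miR-200a and 0.20 for miR-183. None was called then either, the lowest adjusted p of these 5 being 0.30 (limma). Without replicate 3, which ran against replicates 1 and 5 over all miRNAs, miR-200b was at 0.04 and miR-200c at 0.00. The lowest adjusted p among the 8 members without replicate 3 was 0.245 in limma.

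The spread of the ratio between arrays was large for 5 members of this brightness. The SD of the log2 ratio had a median of 0.42 over the 8 members and of 0.12 over all 568 tested miRNAs. Of all tested miRNAs, 2.29% had a larger SD than miR-200b, 2.64% a larger one than miR-183, 6.16% than miR-200c, 6.69% than miR-429 and 12.9% than miR-200a. Because the spread depends on brightness, 185 miRNAs within the members' range of mean intensity were also counted. Their median SD was 0.07, and the number with a larger SD, other members counted too, was 0 for miR-200b, 1 for miR-183, 2 for miR-200c, 3 for miR-429, 4 for miR-200a and 8 for miR-182. It was 71 for miR-141 and 84 for miR-96, whose ratios varied as those of the rest of the range did.

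**Figure D4:**
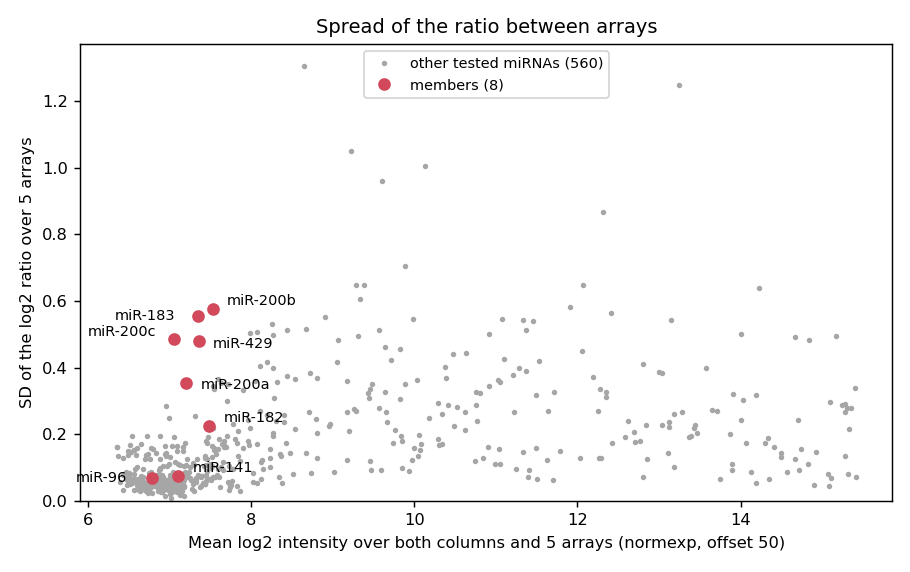
SD of the log2 ratio over the 5 arrays (vertical axis) against mean log2 intensity over both columns (horizontal axis, normexp with offset 50) for the tested miRNAs, grey, with the 8 members in red. MiR-200b, miR-183, miR-200c, miR-429 and miR-200a stand above nearly all miRNAs of similar intensity, and miR-141 and miR-96 lie within them.

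The likeness of the signal profiles, which for most members rest on probes under the mismatch limit and so describe the probes, was measured as the root mean square difference of the ratio over the 5 arrays, among all 567 other tested miRNAs. MiR-183 and miR-200c were each other's nearest, at 0.08. The miRNA nearest to miR-429 was miR-183, at 0.12. For miR-200b, miR-200c, miR-429 and miR-183 the 4 nearest miRNAs were the other members of the group of 5. For miR-200a they were miR-429, miR-200c, miR-127 and miR-300*. The group of 5 was formed from the same ratios, so likeness and spread are no separate support for it. None of the 4 nearest to miR-141, miR-96 or miR-182 was a member. Among the 317 other miRNAs above the mismatch limit, those nearest to miR-182 were miR-181c at 0.10, miR-106a at 0.10 and miR-100 at 0.11. The course itself was put as a count after its values were seen, so the count carries no test. Of 568 tested miRNAs, 5 were above 0 in replicates 1 and 2 and below the 5th percentile in replicate 5, and all 5 were these members. The count depends on the cut at 0, since miR-200a entered at 0.002 in replicate 1. MiR-194, also above 0 in replicate 2 and below the 5th percentile in replicate 5, was left out at −0.03 in replicate 1. In the deposited value table the same count was also 5, of which 4 were members, since miR-200a was at −0.02 in replicate 1, and miR-677 was the other.

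The targets of some like profiles were close in sequence and those of others were not. MiR-200b and miR-200c were 2 edits apart and their profiles differed by 0.18. MiR-429 was 4 edits from miR-200a and miR-200b and 6 from miR-200c, with profiles that differed by 0.14, 0.20 and 0.12. MiR-200a and miR-200b differed by 0.29 in profile, more than miR-200a and miR-182, which differed by 0.19 and are 16 edits apart. The targets of 4 of the 5 members with like profiles were thus 2 to 6 edits apart. Signal shared between these probes was not tested. MiR-183 and miR-200c differed by 13 edits, and their profiles differed by 0.08. MiR-200a and miR-141 share a seed and differ by 2 edits, and their profiles differed by 0.40. MiR-183 differed by 0.47 from miR-96 and by 0.32 from miR-182, its partners in the cluster.

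**Figure D5:**
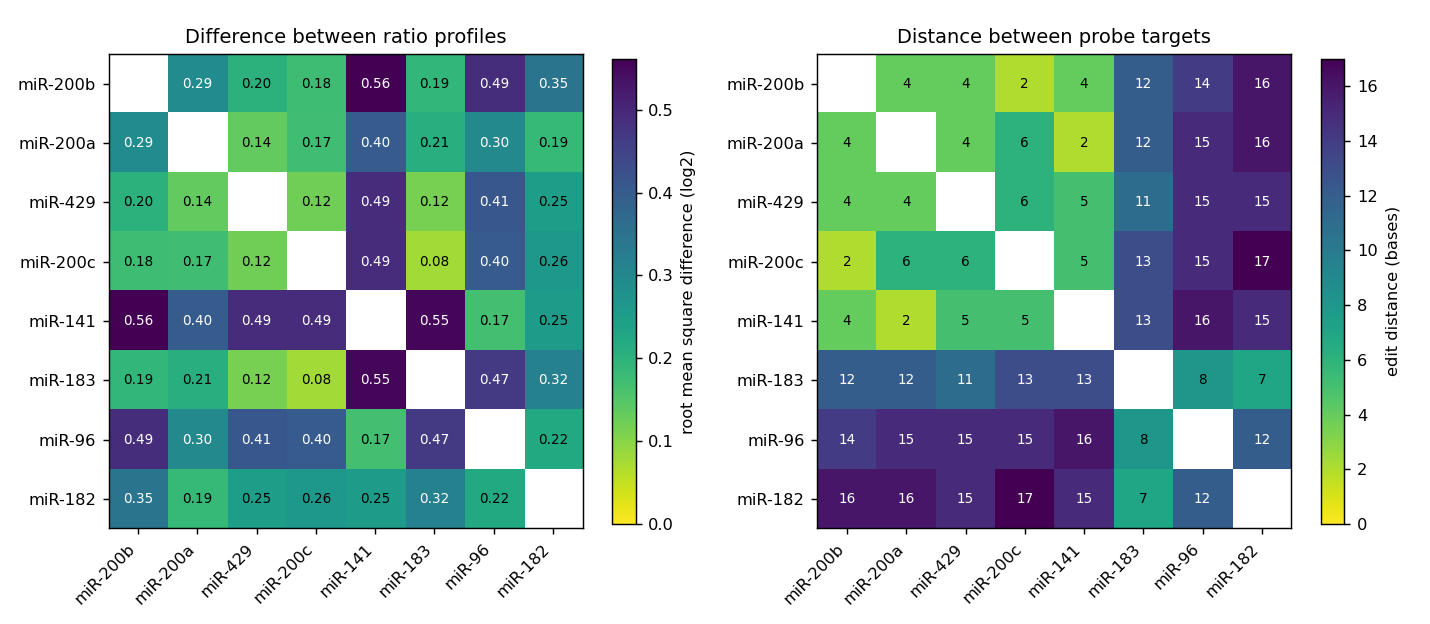
Root mean square difference between the log2 ratio profiles of each pair of members over the 5 arrays (left, log2 units) and edit distance between their probe targets (right, bases), in the order of the 3 clusters. MiR-183 and miR-200c have the smallest difference on the left, 0.08, and are 13 edits apart on the right, while miR-200a and miR-141 differ by 0.40 on the left and by 2 edits on the right.

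Spots in separate parts of the array were compared for replicates 2 and 5, where the ratios were farthest from 0. Of the 6 spots of a miRNA, 3 lie in rows 1 to 64 and 3 in rows 65 to 128. In replicate 5 the ratio of miR-183 was −0.91 in the upper rows and −0.90 in the lower ones. That of miR-200b was −1.01 in the upper rows and −0.71 in the lower ones, that of miR-429 −0.98 and −0.74, that of miR-200c −0.89 and −0.62, and that of miR-200a −0.77 and −0.59. All 5 were well below 0 in both parts. In replicate 2 the ratio of miR-183 was 0.58 in the upper rows and 0.60 in the lower ones, that of miR-200c 0.44 and 0.66, that of miR-200b 0.45 and 0.47, that of miR-429 0.37 and 0.34, and that of miR-200a 0.32 and 0.21. Where ratios were near 0 the parts could differ in sign, as for miR-200a in replicates 1 (−0.03 and 0.03), 3 (0.05 and −0.13) and 4 (0.07 and −0.03), and in replicate 4 for miR-200b (0.10 and −0.04) and miR-200c (0.05 and −0.10). This split was chosen after the ratios were seen, and spots of 1 array share the RNA of 1 pair of mice.

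The authors' deposited value table, a log2 ratio of Test over Cntrl as set against the arrays, gave the lowest ratio of each of miR-200a, miR-200b, miR-200c, miR-429 and miR-183 in replicate 5 too. In it miR-429 had 0.28, 0.50, −0.03, 0.09 and −2.15 in replicates 1 to 5, and miR-183 had 0.45, 0.97, −0.09, −0.02 and −1.59. MiR-200b was at −1.70, miR-200c at −1.62 and miR-200a at −1.79 in replicate 5, all under its 5th percentile there (−1.31). MiR-200a was just below 0 in replicate 1 of the table. MiR-141 was at 0.70 on that array. The table's normalization is not stated, so the sizes are not set against those after loess. The table comes from the same scans and is no separate measurement.

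The opposite strands of the same hairpins were on the array for 5 of the 8 members (miR-200a*, miR-200b*, miR-200c*, miR-141* and miR-183*). These strands are usually the less abundant product of a hairpin. None of the 5 exceeded the mismatch limit by the rule. In replicate 5 their ratios were −0.04 for miR-200a*, 0.05 for miR-200b*, −0.07 for miR-200c*, 0.32 for miR-141* and −0.08 for miR-183*. Their SD had a median of 0.05, and none was below the 5th percentile in replicate 5. At an unadjusted p of 0.05, 3 of the 5 passed in limma (miR-200b*, miR-141* and miR-183*, in both directions), against 19.4% of all tested miRNAs, and none after adjustment, the lowest adjusted p being 0.198.

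Other miRNAs of epithelial tissues were read beside the members. Of 7 listed, 5 exceeded the mismatch limit by the rule (miR-203 of skin, miR-31 of several epithelia, miR-192 and miR-194 of gut and kidney, and miR-375 of endocrine cells), and miR-205 and miR-215 did not. In replicate 5, where 5 members were lowest, the ratio of miR-31 was −0.995, that of miR-194 −0.61 and that of miR-192 −0.30. Those of miR-31 and miR-194 were, like those of the 5 members, below the 5th percentile of all tested miRNAs (−0.56). On the same array the ratio of miR-203 was 0.75 and that of miR-375 1.08, both above the 95th percentile (0.66). The 5 above the limit thus lay on both sides of 0 on that array, and 0 of 7 passed at an unadjusted p of 0.05 in limma, against 19.4% of all tested miRNAs. The summed intensity of the list, with the level of empty spots included, ranged from 1558 to 4484 units in Test and from 4628 to 6675 in Cntrl. Less the median of the empty spots for each probe, it was 1338 to 4202 in Test and 2488 to 4854 in Cntrl.

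MiRNAs of other neural and ciliated tissues were listed too. Of 9 miRNAs of retina, choroid plexus or ciliated epithelium, miR-204, miR-184, miR-34b-3p and miR-34c exceeded the limit, while miR-211, miR-34b-5p, miR-449a, miR-449b and miR-449c did not. In replicate 5 the ratio of miR-204, which is abundant in choroid plexus, was 1.15 and that of miR-34b-3p, of ciliated cells, was 0.97. Those of miR-184 and miR-34c were 0.54 and 0.08. These 4 lay above 0 on the array where 5 members lay below the 5th percentile. The list summed to 27010 to 36564 units in Test and 21489 to 35214 in Cntrl, most of it miR-204. Less the median of the empty spots for each probe, it was 26682 to 36202 in Test and 18244 to 32873 in Cntrl. In limma 1 of 9 passed at an unadjusted p of 0.05 (miR-211, under the limit and named after its value was seen), against 19.4% of all tested miRNAs, and 0 after adjustment. Of the 9 miRNAs of hippocampal neurons, 3 passed at an unadjusted p of 0.05 (miR-9 and miR-218 below 0, miR-132 above it), against the same 19.4%, and 0 after adjustment. The part of other cell types in the members' ratios was not tested.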

How the data were processed

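Hippocampal small RNA of 5 pairs of mice was measured on 5 2-colour arrays. Per the file headers, the authors' deposited tables give mean spot intensity for a Test and a Cntrl column, not normalized, with 3968 spots per array. All background cells are 0. The scanner and its software are not stated in what was read here. The deposited value table holds log2 ratios. Comparison with the arrays settled scale and direction of columns (slope 0.96 to 1.00 on bright probes, medians −0.04, −0.02, −0.03, −0.03 and −0.05), but not its normalization, centring or genotype direction.

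Intensities were corrected by normexp (offset 50) and by loess within each array (span 0.3, 4 iterations, 554 control spots at weight 0). The 6 spots were averaged on the log2 scale, and ratios were fitted with limma 3.58.1 in R 4.3.3 (lmFit and eBayes, two-sided, Benjamini-Hochberg over 568 miRNAs brighter on 3 or more arrays, in either column, than the 95th percentile of 266 empty spots). A ratio within an array already carries the pairing of the mice. The fit was tested on simulated data. P-values test whether the mean log2 ratio is 0, given the spread between these arrays as moderated by eBayes over the tested miRNAs. The number of arrays limits the precision. Figures were drawn with matplotlib 3.10.9 in Python 3.11.15.

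All 8 members were named. So were opposite strands, probes within 3 edits or with a shared seed, list members above the mismatch controls, and the 3 miRNAs nearest to each member above them. Nearest miRNAs for the other members, and the count of the shared course, were added after values were seen. Members and lists were chosen with earlier results of these data known. Alternatives covered background correction, normalization, filter, spot summary, variance model, array weights, pairing, each array left out, replicate 3 turned and the value table.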

Additional observations from a re-analysis of the deposited data

Results flagged for a closer look

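A sample was marked where it stood apart from the other 4 by more than Dixon's 95% limit for 5 values. Of 32 sets of 5 values examined (Test intensity, Cntrl intensity, log2 ratio and value-table ratio of the 8 members), 7 were marked, where about 5% would be by chance if sets were independent, which they are not. All 7 were replicate 5. In Cntrl intensity they were miR-183 at 618 units, miR-200c at 549 and miR-200a at 517, each the highest of its 5. In the deposited value table they were the log2 ratios of miR-429 (−2.15), miR-200a (−1.79) and miR-182 (−0.75), each the lowest of its 5, and of miR-141 (0.70), the highest. The Cntrl marks were set on units that include the level of empty spots. The median of empty spots in Cntrl was 361 units in replicate 5 and 208 to 306 on the other arrays. Less that median, miR-183 in Cntrl had 99.1, 102.5, 164, 78.8 and 258 units in replicates 1 to 5. MiR-200c had 60.6, 63.6, 140, 56.9 and 188, and miR-200a had 123, 105, 144, 72.35 and 157. Replicate 5 was still highest in each, and marks were not set anew on these values. No cause was tested.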

How the results depend on the processing

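Members above the mismatch controls numbered 8 with the empty-spot limit (99.8% of all miRNAs), 0 with all 5 arrays required (48.2%) and 1 without any one replicate. Members past the threshold (0 as reported) numbered 1 with median centring (miR-96 at −0.17, adjusted p = 0.0425 in limma) and 8 with no normalization, where the median of all miRNAs was −0.77. MiRNAs past it (0 as reported) numbered 2 with offset 16, 189 with median centring, 442 with no normalization, 21 with array weights, 2 in the value table, 2 with the lower rows' spots (added after seeing the data) and 0 to 5 with 1 replicate left out (5 without replicate 3). With no replicate block, that is without the pairing, 1 was called, and no member (lowest adjusted p = 0.650). Filtering on the mismatch controls left miR-182 alone of the members. Signs turned as follows. MiR-141 was at −0.0468 with median centring and −0.81 with no normalization, and miR-182 at −0.00777 and −0.77. With array weights miR-183 was at 0.13, miR-200a at 0.0172, miR-200b at 0.17, miR-200c at 0.12 and miR-429 at 0.11. With replicate 3 turned, miR-200b was at 0.10 and miR-200c at 0.0251, and with the lower rows miR-200c was at 0.00232. With 1 replicate left out, the range was −0.18 to 0.20 for miR-183, −0.18 to 0.0616 for miR-200a, −0.18 to 0.17 for miR-200b, −0.17 to 0.16 for miR-200c and −0.15 to 0.16 for miR-429, and 0.00434 to 0.14 for miR-182. The cause was not tested. Of 161 values of single members, 135 kept direction and side of the threshold. Low signal over the controls limits all 8 members.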
